A study of Mus musculus with 2 samples.

Results

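The expression of 9 mouse genes was described in heart allografts: the CC chemokine genes Ccl2, Ccl7, Ccl8, Ccl12, Ccl11, Ccl24, Ccl6 and Ccl9, and the receptor gene Ccr2. They were chosen by name, out of 22337 gene symbols, after earlier results of the same comparison had been seen. Their differences between graft groups below are therefore descriptions and not tests. The study asked how IL-33 made by the graft shapes the immune cells that enter it. Bm12 donor hearts, which carry an altered MHC class II molecule, were transplanted into B6 recipients and collected on postoperative day 14. The 3 hearts labelled IL-33+ (replicates 1, 2 and 3) were Bm12 with intact Il33, and the 3 labelled IL-33- (replicates 4, 5 and 6) were Bm12 Il33-/-, bred from Bm12 and Il33-/- mice. Immune cells from an enzymatic digest and density gradient were tagged with a hashtag antibody per heart and sequenced as 1 pooled library, so a heart was the unit of replication.

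CC chemokines are small secreted proteins that draw leukocytes along a gradient through receptors coupled to G proteins. Ccl2, Ccl7 and Ccl12 are ligands of Ccr2, the receptor by which inflammatory monocytes leave bone marrow and enter injured tissue such as the heart. Mouse Ccl8 is a ligand of Ccr8, Ccl11 and Ccl24 are eotaxins that act on eosinophils through Ccr3, and Ccl6 and Ccl9 are myeloid chemokines that act mainly through Ccr1. IL-33 is a cytokine released by damaged stromal cells that drives type 2 responses.

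The 6 hearts held 230 to 1666 cells and 908180 to 7013289 unique molecular identifiers (UMIs, each standing for 1 captured RNA molecule), with 1500 to 14977 UMIs in a cell and a median of 3700. The authors placed the 4441 cells in 14 annotated types. Levels are in CPM, the UMIs of a gene scaled to a common total for every cell, and are given as the mean of the cells of 1 type from 1 heart. Il33 did not separate the groups: fibroblasts of replicates 1 to 3 had 24.3, 0 and 50.7 CPM, and those of replicates 4 to 6 had 32.6, 73.8 and 16.1 CPM. The position of the deleted part is not given in the sources used here, and a 3′ tag outside it would check nothing. Directions between groups therefore rest on the labels.

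The 7 fibroblast markers summed to 48109 CPM in annotated fibroblasts and to at most 1090 CPM in the myeloid types. Some annotated types carried markers of other cells. Of 83 cells annotated as unconventional T cells, 59 (71.1%) had UMIs of at least 2 T cell and at least 2 macrophage markers. All 9 listed macrophage markers were found there, and their summed level was 2423 to 3378 CPM in the IL-33+ hearts and 3355 to 4877 CPM in the IL-33- hearts. Of 204 Mo-DCs (monocyte-derived dendritic cells), 46 had UMIs of at least 4 of 8 neutrophil markers. The neutrophil marker sum in Mo-DCs was 2207 to 9564 CPM in the IL-33+ hearts and 2193 to 71701 CPM in the IL-33- hearts. Of 375 fibroblasts, 69 had UMIs of at least 2 endothelial markers and 91 of at least 2 macrophage markers. No eosinophils were annotated. Of 7 eosinophil markers, Ear1 had 0 UMIs, Ear6 1, Prg2 12, Il5ra 21, Siglecf 33 and Ccr3 79, while Ear2 had 395 UMIs in 137 cells and was highest in macrophages. The summed eosinophil markers in macrophages were 102 to 183 CPM in the IL-33+ hearts and 11.6 to 84.4 CPM in the IL-33- hearts. Over all macrophages Ear2 gave 85.5 CPM of a sum of 88.6 CPM, so this sum is nearly that of Ear2 alone. In the series 1 cell had UMIs of at least 2 eosinophil markers.

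The 9 genes fell into different parts of the graft. Ccl2, Ccl7 and Ccl11 had their highest mean over the 6 hearts in fibroblasts, Ccl12 in macrophages, Ccl6 and Ccr2 in monocytes, and Ccl8, Ccl24 and Ccl9 in Mo-DCs. A place in the order was taken as separated from the next where the mean log2 difference within hearts was larger than its SD. By that measure Ccl11 in fibroblasts stood above Mo-DCs and Ccr2 in monocytes above macrophages. Ccl24 and Ccl6 in macrophages stood above unconventional T cells, and Ccl8 in macrophages above fibroblasts. Lower in the order, Ccl6 and Ccl9 in unconventional T cells stood above cDCs and Ccr2 in Trm-like cells above Tcm. The first places of Ccl2, Ccl7, Ccl8, Ccl12, Ccl24, Ccl6 and Ccl9 did not differ from the next type beyond the spread.

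**Figure D1:**
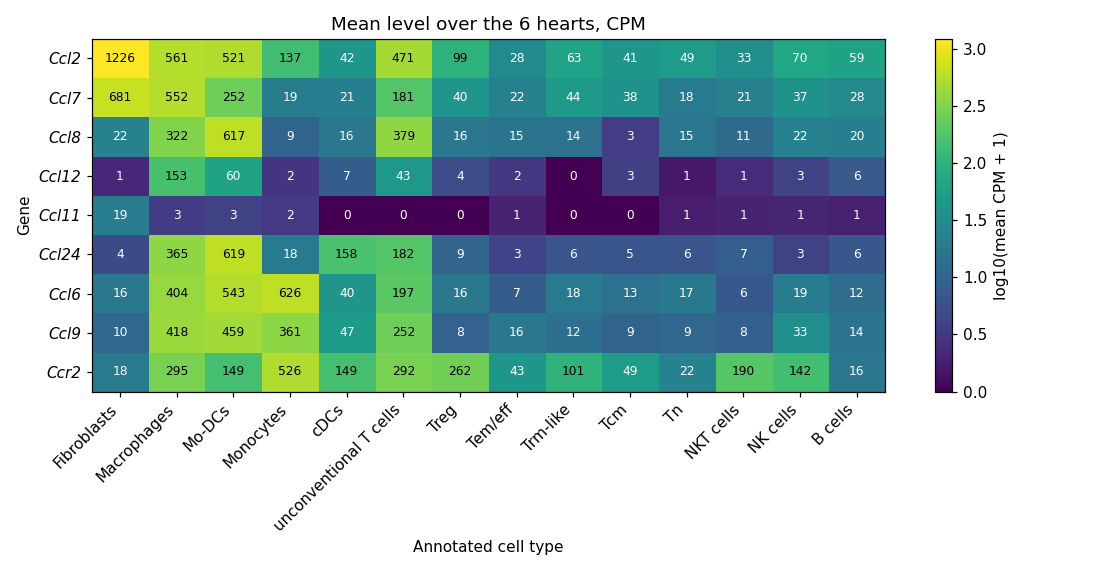
Mean level of each gene (rows) in each annotated cell type (columns) over the 6 hearts, printed in CPM and coloured by log10(mean CPM + 1). The ligands are highest in fibroblasts, the myeloid types and the cells annotated as unconventional T cells, and Ccr2 reaches 262 CPM in Treg.

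The ligands also differed in how many cells carried them. Ccl2 was found in 1026 cells and Ccr2 in 1236, whereas Ccl8 was found in 266, Ccl24 in 231, Ccl12 in 138 and Ccl11 in 44. The 10 cells with the most UMIs of a gene held 4.67% of all Ccr2 UMIs, 11.3% of Ccl9 and 13.7% of Ccl6. They held 21.7% of Ccl2, 26.2% of Ccl7, 29.3% of Ccl24, 45.0% of Ccl12, 46.4% of Ccl8 and 61.8% of Ccl11. Only 12 cells held 50% of the Ccl8 UMIs, so the mean of a heart could rest on few cells. The share of cells with at least 4 of the 8 ligands was 33.7% in unconventional T cells, 24.2% in macrophages, 15.2% in Mo-DCs, 7.79% in monocytes and 2.13% in fibroblasts. Their median depths were 10175, 6607, 2311, 6710 and 5790 UMIs. With every cell thinned to 1500 UMIs the expected shares were 3.98% in unconventional T cells, 7.90% in macrophages, 8.90% in Mo-DCs, 0.368% in monocytes and 0.162% in fibroblasts, so the order among the first 3 turned with depth.

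**Figure D2:**
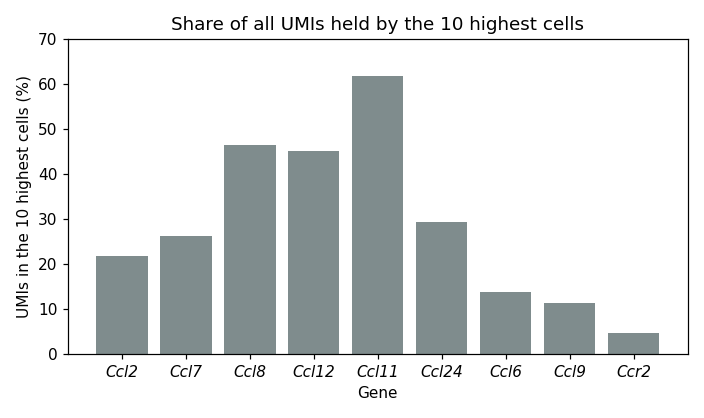
Share of each gene's UMIs (y axis, percent) held by the 10 of 4441 cells with the most UMIs of that gene. The share is 4.67% for Ccr2 and 61.8% for Ccl11, with Ccl8 and Ccl12 near 45%.

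The groups were compared within each type by limma on log2(mean CPM + 10), with Benjamini-Hochberg adjustment over all genes of the type and a call at an adjusted p of 0.05. A log2 fold change is IL-33+ minus IL-33-, and it understates the change of low genes. Of 126 pairs of a gene and a type, 86 had enough UMIs to be fitted, 6 were called (6.98%; 2 higher and 4 lower in the IL-33+ hearts) and 15 had an unadjusted p of 0.05 or lower. Their median log2 fold change was -0.05. Over all genes and types 0.00884% was called. The share of all genes with an unadjusted p of 0.05 or lower ran from 3.16% in fibroblasts to 6.79% in cDCs. Nothing is read from either gap because the genes were chosen with earlier results of this comparison known. The share of genes called was 0.0187% in fibroblasts, 0.0702% in Mo-DCs, 0.014% in monocytes, 0.0128% in Trm-like cells and 0.0272% in unconventional T cells. It was 0% in macrophages, where 391 of 9683 genes had an unadjusted p of 0.05 or lower, and 0% in each of B cells, NK cells, NKT cells, Tcm, Tem/eff, Tn, Treg and cDCs. The standard errors of limma borrow spread across genes, and those of the called pairs were smaller than the heart-to-heart spread of the gene itself. With each gene's own spread, an alternative added after the data were seen, 0 of the 86 pairs were called and 3 had an unadjusted p of 0.05 or lower. Where groups are said below not to overlap, the share of all genes that separate so was not counted. An exact permutation test of 3 against 3 hearts cannot give a p under 0.1, so nothing is read from separation alone.

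**Figure D3:**
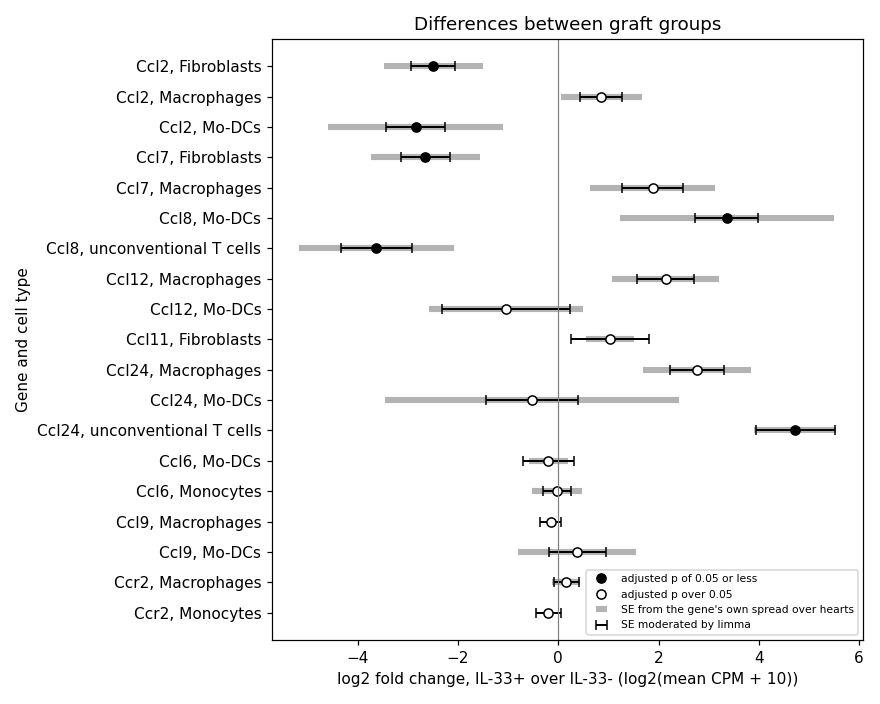
Log2 fold change (IL-33+ minus IL-33-) for 19 pairs of a gene and a type, with limma's standard error in black and that from the gene's own spread in grey. Filled points mark called pairs. These 6 are Ccl2 and Ccl7 in fibroblasts, Ccl2 and Ccl8 in Mo-DCs, and Ccl8 and Ccl24 in unconventional T cells, and they lie on both sides of 0.

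Ccl2, the main attractant of Ccr2+ monocytes, was lower in the fibroblasts of the IL-33+ hearts. Replicates 1, 2 and 3 had 671, 83.5 and 598 CPM, from 34, 6 and 270 fibroblasts. Replicates 4, 5 and 6 had 1254, 2806 and 1944 CPM, from 31, 4 and 30 fibroblasts. The groups did not overlap, with means of 451 ± 320 and 2001 ± 777 CPM (SD, n = 3 hearts each). The log2 fold change was -2.50 with a standard error of 0.43 by limma and 0.99 from the gene's own spread. The share of fibroblasts with a Ccl2 UMI overlapped between groups, at 43.3% to 58.8% in the IL-33+ hearts and 50% to 75% in the IL-33- hearts. The UMIs in each such cell did not overlap, at 7.05, 1.67 and 10.2 against 16.4, 36.3 and 27.0. These counts were not scaled for depth. The median depths of all fibroblasts did not overlap either, at 5232, 6094.5 and 5613.5 UMIs against 7359, 7261 and 6149.5 UMIs. One cell held 44.2%, 56.9% and 40.2% of the fibroblast Ccl2 UMIs of replicates 4, 5 and 6. Without IL-33+ replicate 2, which had 5 Ccl2 UMIs in fibroblasts, the log2 fold change was -1.57 and the call was lost. Without hearts of under 10 cells the log2 fold change was -1.29 and the call was kept. The call was also lost without IL-33+ replicate 3 or IL-33- replicate 5, with 1 CPM added, with no filter, with limma-voom (-1.52) and with summed UMIs.

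Ccl7, the neighbouring gene and a further Ccr2 ligand, had the same order in fibroblasts. The IL-33+ hearts had 288, 31.0 and 410 CPM and the IL-33- hearts 700, 1298 and 1360 CPM, with no overlap. The log2 fold change was -2.65 with a standard error of 0.48, and 1.09 from the gene's own spread. Single fibroblasts held 57.0%, 68.5% and 36.4% of the Ccl7 UMIs of replicates 4, 5 and 6. The call was lost under the same alternatives as for Ccl2, with a log2 fold change of -1.61 without IL-33+ replicate 2 and -1.15 with limma-voom. Without hearts of under 10 cells the log2 fold change was -1.48 and the call was kept. Fibroblasts with at least 2 endothelial markers had 617 CPM of Ccl2 and 124 CPM of Ccl7, against 819 and 588 CPM in the others. With those cells left out the log2 fold changes were -2.72 for Ccl2 and -2.56 for Ccl7. The 91 fibroblasts with at least 2 macrophage markers had 1023 CPM of Ccl2 and 525 CPM of Ccl7, against 705 and 495 CPM in the others, and held 813 of the 2130 fibroblast Ccl2 UMIs. Their median depth was 7105 UMIs, against 5497.5 UMIs in the others. These 91 cells were 14.7%, 16.7% and 25.2% of the fibroblasts of replicates 1 to 3 and 35.5%, 0% and 20% of those of replicates 4 to 6.

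Without these 91 cells, an alternative added after the data were seen, the groups overlapped and neither gene was called. Ccl2 in the remaining fibroblasts was 637, 100.3 and 584 CPM in the IL-33+ hearts and 555, 2806 and 1708 CPM in the IL-33- hearts, a log2 fold change of -2.00. Ccl7 was 283, 37.2 and 454 CPM against 109.8, 1298 and 1381 CPM, a log2 fold change of -1.69. Replicate 4 fell within the range of the IL-33+ hearts for both genes.

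In macrophages both genes leaned the other way. Ccl2 in macrophages was 238, 752 and 1290 CPM in the IL-33+ hearts and 535, 201 and 352 CPM in the IL-33- hearts, a log2 fold change of 0.85 (SE 0.41) with overlapping groups. Ccl7 was 113, 1890 and 817 CPM against 278, 109 and 104 CPM, a log2 fold change of 1.88 (SE 0.60), and 1 cell held 82.2% of the Ccl7 UMIs of replicate 2. Neither was called. The fibroblast level of Ccl2 divided by the macrophage level was 2.82, 0.111 and 0.464 in replicates 1 to 3 and 2.34, 14.0 and 5.53 in replicates 4 to 6. For Ccl7 the same ratio was 2.55, 0.0164 and 0.502 against 2.52, 11.9 and 13.1. Replicate 1 thus lay with the IL-33- hearts in both ratios.

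In Mo-DCs Ccl2 was 304, 0 and 416 CPM in the IL-33+ hearts and 769, 597 and 1041 CPM in the IL-33- hearts. These groups did not overlap, and the log2 fold change was -2.85, with a standard error of 0.58 that came from limma's trend alone and 1.75 from the gene's own spread. The value of 0 was from the 4 cells of IL-33+ replicate 2, and without that heart the log2 fold change was -1.11. The call was lost there, without IL-33- replicate 6, with limma-voom, and without hearts of under 10 cells (-1.31). The neutrophil marker S100a8 (log2 fold change -1.88, limma adjusted p = 0.0122) and the monocyte marker Chil3 (-3.83, limma adjusted p = 0.000308) were the other genes called with Ccl2 and Ccl8 in Mo-DCs, both lower in the IL-33+ hearts. Mo-DCs with at least 4 neutrophil markers had 114 CPM of Ccl2 against 605 CPM in the others, and without them the log2 fold change was -3.12. Ccl7 in Mo-DCs overlapped between groups, with a log2 fold change of 0.11. In monocytes Ccl2 was 68.3, 0 and 68.3 CPM against 272, 370 and 45.6 CPM, a log2 fold change of -2.20 (SE 0.63) that was not called. Ccl2 was also found at 27.9 to 99.5 CPM in the 8 lymphocyte types, where 13.9% to 20.5% of cells had a UMI, against 46.7% of fibroblasts. Their median depths ran from 2292 to 5741 UMIs, against 5790 in fibroblasts. After thinning every cell to 1500 UMIs the shares were 4.45% to 12.2% and 28.6%. The 7 fibroblast markers were also found in these lymphocyte types, at 346 to 682 CPM, with at least 2 of them in 39.1% to 47.5% of cells. Of these markers Gsn had the most UMIs, with 53812 in 2344 cells of all types. Whether the Ccl2 UMIs of lymphocytes were their own or free RNA was not tested.

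**Figure D4:**
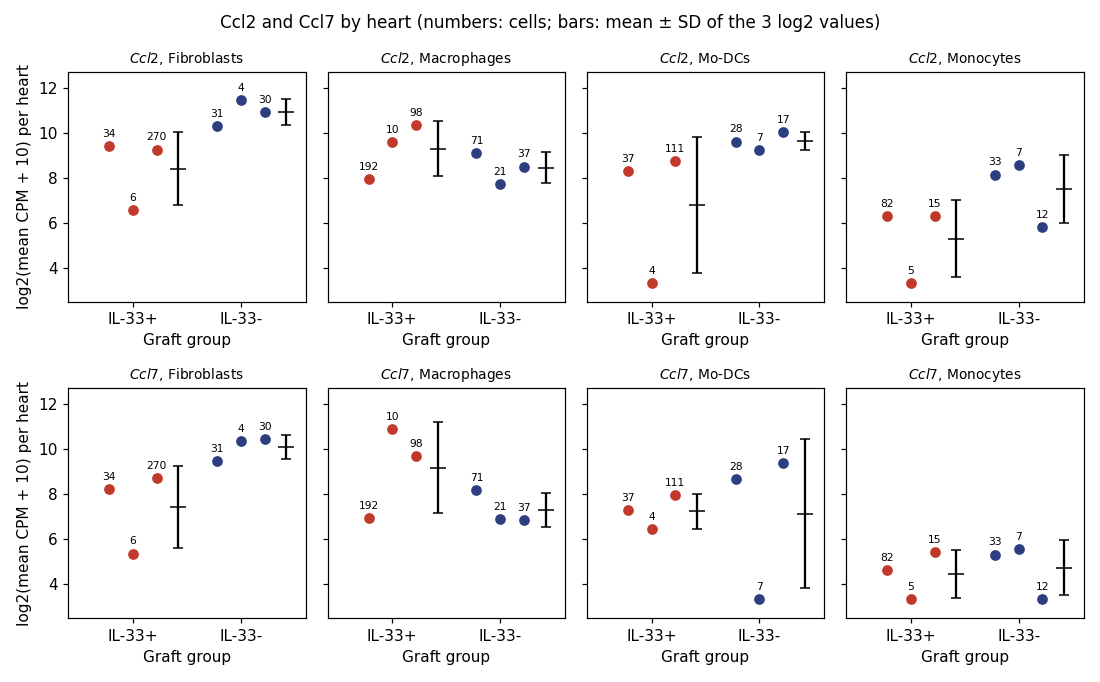
Ccl2 (upper row) and Ccl7 (lower row) by heart in 4 cell types, as log2(mean CPM + 10). Points are hearts with their number of cells, and bars are the mean ± SD of 3 log2 values. Ccl2 and Ccl7 in fibroblasts and Ccl2 in Mo-DCs do not overlap between groups when all annotated cells are kept. The share of all genes that separate so was not counted.

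Ccl2 and Ccl7 overlapped in part of the cells. In fibroblasts 52.0% of cells with a Ccl2 UMI had one of Ccl7, against 23.5% of cells without, at median depths of 6386 and 5293 UMIs. In macrophages the shares were 44.5% and 12.6%, at 6632 and 6552 UMIs. Over 72 means of a heart and type with at least 10 cells, the genes whose log2 level was most like Ccl2 were Creb5, Sash1 and Ccl7 (Pearson r of 0.84, 0.83 and 0.82). Those most like Ccl7 were Ccl2, C4b and Pla2g4a (0.82, 0.78 and 0.76). These means share 1 library and 6 hearts and are not independent. In GRCm38, Ccl2 lies at chr11:82035571-82037453 and Ccl7 at chr11:82045712-82047525, both on the plus strand. Ccl2 overlaps Gm17268 on the opposite strand, and whether counting used strand is not given in the sources used here.

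Ccl8 and Ccl12 lie in the same cluster, at chr11:82115185-82116799 and chr11:82101845-82103400 on the plus strand, and 5 of the 9 genes (Ccl2, Ccl7, Ccl11, Ccl12 and Ccl8) span 81229 bases there. The 250 bases before their starts (RefSeq, GRCm38.p6, plus strand, chr11:82101595-82101844 for Ccl12 and chr11:82114935-82115184 for Ccl8) are shown because the pair tracked together over cell types. Capitals mark TATAAAA, and the windows share no run of 10 bases.
Ccl12: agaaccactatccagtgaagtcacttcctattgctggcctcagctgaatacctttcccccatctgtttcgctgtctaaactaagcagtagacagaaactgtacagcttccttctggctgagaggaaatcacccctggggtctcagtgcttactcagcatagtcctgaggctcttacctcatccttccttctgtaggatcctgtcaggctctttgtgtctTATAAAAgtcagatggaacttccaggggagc
Ccl8: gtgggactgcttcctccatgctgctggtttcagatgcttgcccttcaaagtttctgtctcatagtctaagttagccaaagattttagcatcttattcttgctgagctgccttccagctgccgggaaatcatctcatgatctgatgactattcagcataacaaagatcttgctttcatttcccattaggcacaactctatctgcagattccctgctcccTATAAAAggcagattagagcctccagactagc
TATAAAA ends 25 bases before the start in Ccl12 and 26 bases before it in Ccl8, and 4.98% of 32851 promoter windows hold it on either strand. The reverse complement of GGAAGT, the core of ETS factor sites, occurs 2 times in the Ccl12 window and is not in the Ccl8 window (19.7% of windows hold it). Promoters of 5 of the 9 genes (Ccl6, Ccl8, Ccl9, Ccl12 and Ccr2) matched the table. The other motifs searched on both strands were TTGCNNAA (C/EBP, 9.56% of windows), TGANTCA (AP-1, 6.75%) and that of NF-kB (7.25%), and none of these letters is in the Ccl8 or Ccl12 window.

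Ccl8 in Mo-DCs was 888, 1442 and 283 CPM in the IL-33+ hearts and 23.1, 0 and 1062 CPM in the IL-33- hearts. The groups overlapped through replicate 6, where 1 of 17 cells held 78.6% of the UMIs. The log2 fold change was 3.36, with a standard error of 0.63 from limma's trend and 2.13 from the gene's own spread, and the pair was called although the groups overlapped. The call was lost when hearts with under 10 cells were left out (1.45), without IL-33- replicate 5 (1.95), without IL-33+ replicate 2 and with limma-voom. Without IL-33- replicate 6 the log2 fold change was 5.32. Mo-DCs with at least 4 macrophage markers (49 cells) had 1727 CPM of Ccl8 against 26.7 CPM in the other Mo-DCs. Those with at least 4 neutrophil markers had 14.1 CPM against 558 CPM, and their share was 8.11%, 25.0% and 24.3% in replicates 1 to 3 and 42.9%, 28.6% and 5.88% in replicates 4 to 6. Without the cells with neutrophil markers the log2 fold change was 4.21. S100a8 and Chil3 were called in the same type, as given above for Ccl2.

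In unconventional T cells the direction was the opposite. Ccl8 was 221, 0 and 20.8 CPM in the IL-33+ hearts and 200, 1383 and 449 CPM in the IL-33- hearts, from 2 to 27 cells a heart. The log2 fold change was -3.63 (SE 0.70, and 1.54 from the gene's own spread), and the groups overlapped. The UMIs came from 3, 0 and 4 cells against 2, 2 and 2 cells, and 1 cell held 94.6% of those of replicate 5 and 95.1% of those of replicate 4. Without the cells that had both T cell and macrophage markers the log2 fold change was 2.00, so the direction turned. The call was also lost when hearts with under 10 cells were left out (-1.32), and without IL-33+ replicate 2 or IL-33- replicates 5 or 6. In macrophages, which held 62.5% of all Ccl8 UMIs, the level was 274, 233 and 828 CPM against 198, 368 and 31.6 CPM, a log2 fold change of 1.38 (SE 0.55) that was not called.

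Ccl8 was lower in macrophages that had a Ccr2 UMI. The 294 macrophages with a Ccr2 UMI had 86.2 CPM of Ccl8, and the 135 without had 990 CPM, at median depths of 6873 and 5899 UMIs. The level was lower in the Ccr2+ cells of 6 of 6 hearts. It was 74.5 against 1009 CPM in replicate 1, 150 against 1695 CPM in replicate 3, 88.2 against 387 CPM in replicate 4 and 5.84 against 73.9 CPM in replicate 6. Replicate 2, with 10 macrophages, had 151 against 424 CPM and replicate 5, with 21, had 52.5 against 882 CPM. For Ccl24 the level was lower in the Ccr2+ cells of 3 of 6 hearts, and for Ccl7 and Ccl12 in 4 of 6 each. This comparison was chosen after its values were seen.

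Ccl12 was largely a macrophage gene, with 76.7% of its 544 UMIs there. Its level in macrophages was 61.5, 297 and 400 CPM in the IL-33+ hearts and 120, 19.6 and 17.5 CPM in the IL-33- hearts, overlapping through replicates 1 and 4. The log2 fold change was 2.14 (SE 0.56) and was not called. In Mo-DCs it was 23.3, 0 and 58.9 CPM against 93.1, 0 and 185 CPM, a log2 fold change of -1.04 (SE 1.28). Macrophages with a Ccl8 UMI had one of Ccl12 in 47.0% of cells, against 11% of those without. The genes most like Ccl12 over the 72 means were the complement genes C1qa, C1qc and C1qb (r of 0.83, 0.81 and 0.80). Those most like Ccl8 were Retnla, C1qa and C1qb (0.84, 0.78 and 0.76), and Ccl8 and Ccl12 had an r of 0.74.

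The eotaxins were split between stroma and myeloid cells. Ccl11 (chr11:82057823-82062955, plus strand) had 102 UMIs in all, of which 78.4% were in fibroblasts. Its level there was 19.9, 31.0 and 34.4 CPM in the IL-33+ hearts and 15.0, 0 and 15.5 CPM in the IL-33- hearts, without overlap, a log2 fold change of 1.03 (SE 0.78) that was not called. These means rest on 7, 1 and 64 UMIs against 4, 0 and 4. In the other types its mean over the 6 hearts was at most 2.99 CPM, and single hearts reached 16.1 CPM in Mo-DCs (2 UMIs in that type) and 14.3 CPM in monocytes (1 UMI). The genes most like it were Chsy3, Gstm5 and D630003M21Rik, each with an r of 0.83.

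Ccl24 (chr5:135569937-135573049, minus strand) was mainly in macrophages, which held 70.1% of its 2180 UMIs. Its level in macrophages was 1041, 757 and 151 CPM in the IL-33+ hearts and 22.4, 151 and 68.5 CPM in the IL-33- hearts. Replicates 3 and 5 met at 151 CPM, and the other hearts were separate. The log2 fold change was 2.77, with a standard error of 0.54 by limma and 1.07 from the gene's own spread, and it was not called. The share of macrophages with a Ccl24 UMI was 50.5%, 40.0% and 19.4% against 7.04%, 19.0% and 8.11%. At 1500 UMIs a cell it was 35.8%, 25.8% and 9.80% against 2.69%, 10.9% and 5.10%. In lymphocytes 0.644% to 2.88% of cells had a UMI. A Ccl24 UMI was found in 31.9% of macrophages with one of Ccl2 and in 29.8% of those without.

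In unconventional T cells Ccl24 was 815, 140 and 140 CPM in the IL-33+ hearts and 0 in all 3 IL-33- hearts. No UMI was found in the 29 IL-33- cells, which allows up to 10.1 CPM (3 counts over the group), against 258 UMIs in 54 cells and 481 CPM over the summed IL-33+ cells. With counting error alone, the level was at least 47.4-fold higher over the summed cells and at least 36.0-fold by the mean of the 3 hearts. These limits do not cover spread between cells or hearts. In unconventional T cells 1 cell held 41.0% of the Ccl24 UMIs of replicate 1 and 75.8% of those of replicate 3. Replicate 1 gave 222 of the 258 UMIs, and without it the limit was at least 12.0-fold. Ccl24 passed the filter there through the IL-33+ hearts alone, so it had to differ, and its call among the 6 carries no weight. The fitted log2 fold change of 4.72 depends on the CPM added and is no bound. The level was 370 CPM in the unconventional T cells with T cell and macrophage markers and 109 CPM in the others. The share of such cells was 68%, 100% and 81.5% in replicates 1 to 3 and 55.6%, 85.7% and 50% in replicates 4 to 6, and its part in the difference was not tested. In Mo-DCs Ccl24 was 289, 0 and 142 CPM against 0, 3251 and 31.4 CPM, and the value of 3251 CPM was 49 UMIs in 1 cell. Without hearts of under 10 cells the log2 fold change was 3.39 in place of -0.52. The genes most like Ccl24 were Gatm, Mgl2 and Arg1 (r of 0.78, 0.71 and 0.69), the last 2 being known from alternatively activated macrophages. Ccr3, the eotaxin receptor, had 79 UMIs in all, with its highest level of 31.5 CPM in Treg.

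**Figure D5:**
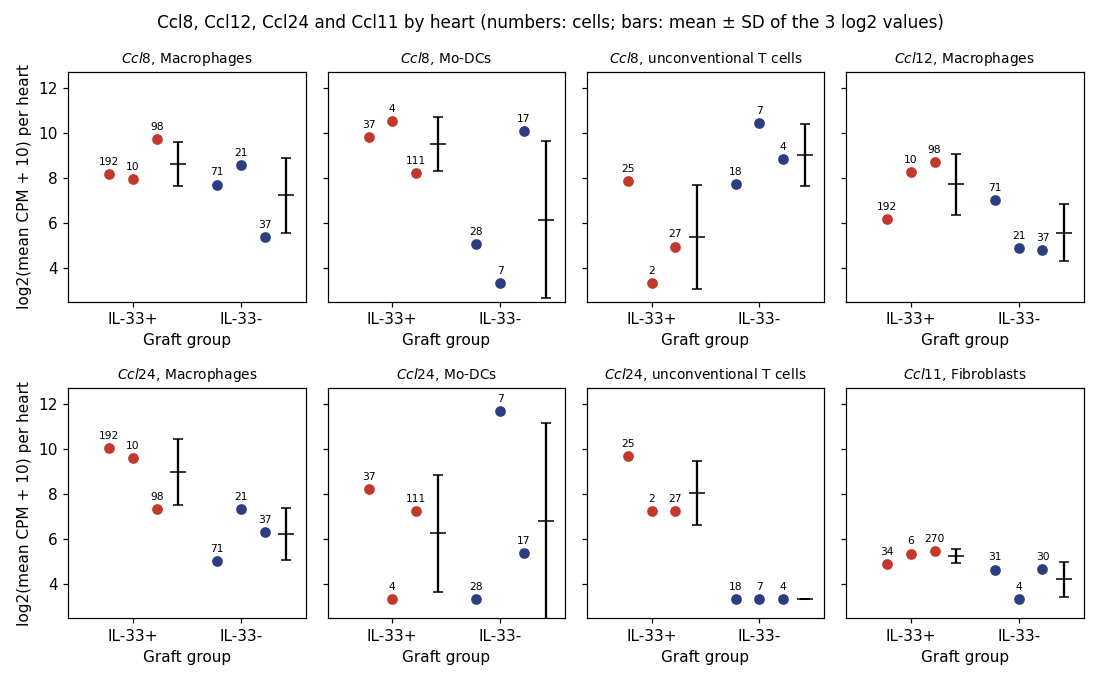
Ccl8, Ccl12, Ccl24 and Ccl11 by heart in the types described, as log2(mean CPM + 10), with the number of cells beside each point and bars for the mean ± SD of 3 log2 values. Ccl24 in unconventional T cells is at 0 CPM in replicates 4, 5 and 6, and Ccl8 lies higher in opposite groups in Mo-DCs and unconventional T cells.

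Ccl6 and Ccl9 are neighbours on the minus strand, at chr11:83587882-83593087 and chr11:83572919-83578636 (GRCm38), and Ccl6 overlaps E230016K23Rik on the opposite strand. The 250 bases before their starts (RefSeq, GRCm38.p6, minus strand, chr11:83593088-83593337 for Ccl6 and chr11:83578637-83578886 for Ccl9) are shown because their levels tracked each other over cell types. Capitals mark the 2 runs of at least 10 bases that the windows share, of 12 and 13 bases. They lie apart in Ccl6 and overlap in Ccl9, where they form 1 stretch of 19 bases that does not occur whole in Ccl6.
Ccl6: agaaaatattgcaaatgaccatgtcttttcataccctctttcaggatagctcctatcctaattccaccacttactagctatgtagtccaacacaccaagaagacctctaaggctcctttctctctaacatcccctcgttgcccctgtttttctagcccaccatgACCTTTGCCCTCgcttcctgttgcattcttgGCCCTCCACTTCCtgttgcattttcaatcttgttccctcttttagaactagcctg
Ccl9: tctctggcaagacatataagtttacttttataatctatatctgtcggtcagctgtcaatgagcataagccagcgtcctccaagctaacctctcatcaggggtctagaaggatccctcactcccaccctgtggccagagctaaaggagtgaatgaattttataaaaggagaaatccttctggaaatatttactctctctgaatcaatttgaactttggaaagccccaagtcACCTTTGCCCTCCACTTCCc
The longest shared run holds the reverse complement of GGAAGT, which ends 43 bases before the start of Ccl6 and 2 bases before that of Ccl9. TATAAAA occurs 3 times in the Ccl9 window on either strand and is not in the Ccl6 window. The letters of the AP-1 and NF-kB motifs each occur once in the Ccl9 window and are not in the Ccl6 window.

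Ccl6 in monocytes was 346, 771 and 758 CPM in the IL-33+ hearts and 393, 880 and 610 CPM in the IL-33- hearts, a log2 fold change of -0.02 (SE 0.28). In Mo-DCs it was 424, 439 and 612 CPM against 374, 884 and 524 CPM (log2 fold change -0.20). Macrophages had 345, 132 and 526 CPM against 405, 652 and 361 CPM (-0.64). The groups overlapped in all 3 types. Ccl9 in macrophages was close to even over the hearts, at 386, 385 and 413 CPM against 451, 472 and 399 CPM, with a log2 fold change of -0.15 (SE 0.21). In Mo-DCs Ccl9 was 256, 376 and 498 CPM against 144, 1380 and 101 CPM, where the 1380 CPM came from a heart with 7 Mo-DCs. In monocytes it was 277, 427 and 520 CPM against 342, 356 and 244 CPM. Neither gene was called in any type.

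Macrophages with a Ccl6 UMI had one of Ccl9 in 77.0% of cells, against 46.9% of those without, at median depths of 6932 and 6032 UMIs. Over the 72 means the r between the pair was 0.86. The genes most like Ccl6 were Tlr2, Cd14 and Ccr1 (0.91, 0.90 and 0.90), and those most like Ccl9 were Ftl1, Cd14 and Clec4a1 (0.90, 0.89 and 0.89). In Mo-DCs the pair parted: cells with at least 4 neutrophil markers had 766 CPM of Ccl6 against 479 CPM in the others, and 61.1 CPM of Ccl9 against 499 CPM.

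Ccr2 (chr9:124101950-124113557, plus strand), the receptor of Ccl2, Ccl7 and Ccl12, was highest in monocytes. There it was 480, 531 and 459 CPM in the IL-33+ hearts and 591, 538 and 557 CPM in the IL-33- hearts. The groups did not overlap, but the log2 fold change was -0.20 (SE 0.25) and was not called. In macrophages it was 419, 293 and 232 CPM against 332, 233 and 260 CPM (log2 fold change 0.16, SE 0.25). Monocytes were above macrophages in 6 of 6 hearts. It was 292 CPM over the 6 hearts in unconventional T cells. Among the 8 other lymphocyte types it was highest in Treg, at 294, 228 and 188 CPM against 266, 106 and 492 CPM. In NK cells it was 67.6, 146 and 86.6 CPM against 191, 192 and 167 CPM, without overlap, a log2 fold change of -0.87 (SE 0.24). That pair was not called here and was the 1 pair called by limma-voom. The genes most like Ccr2 were Efhd2, Map2k3 and S100a4 (r of 0.78, 0.78 and 0.77).

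The share of cells that Ccr2 ligands draw overlapped between the groups, and the choice of genes did not use it. Monocytes and macrophages made up 31.6%, 6.52% and 6.78% of the cells of replicates 1 to 3 and 12.4%, 9.86% and 8.77% of those of replicates 4 to 6. The means were 15.0% ± 14.4 and 10.4% ± 1.89 (SD, n = 3 hearts each), with an exact two-sided permutation p of 1, where the smallest p that 3 against 3 allows is 0.1. The difference of 4.63 percentage points rested on replicate 1, without which it was -3.70. Shares of cells after a density gradient do not give cells per heart.

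The rest of the system was read from 41 genes in 5 lists, of which 37 could be fitted in 329 pairs of a gene and a type. The pair called was Cxcl9, an interferon-induced chemokine, in monocytes, with a log2 fold change of -3.24 (SE 0.65, limma adjusted p = 0.047), lower in the IL-33+ hearts. No list pair was called with 1 CPM added, with each gene's own spread or without IL-33- replicate 5, so the Cxcl9 call was lost under each. Without a filter on low values 4 pairs were called. None of 59 pairs of other CC chemokines was called by limma, with 5 higher and 4 lower at an unadjusted p of 0.05, and none of 36 pairs of the receptors and scavengers, with 2 higher and 4 lower. For type 2 cytokine signalling 0 of 46 pairs were called (2 higher and 0 lower at an unadjusted p of 0.05), and for NF-kB, TNF and IL-1 0 of 95 (9 higher and 1 lower). The interferon list had 1 of 93 called, with 9 higher and 7 lower at an unadjusted p of 0.05. By type, 3.16% to 6.79% of all genes had an unadjusted p of 0.05 or lower. The lists were written with earlier results of these data known, so nothing is read from their counts or directions. The median log2 fold change of the lists lay between -0.13 and 0.11.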

How the data were processed

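Per the labels and the study's methods, single cells of 6 pooled, hashtagged hearts were processed with Cell Ranger on mm10 and Partek 10.0.23.0425, and the authors deposited log2(CPM + 1) values per cell with a cell type annotation. UMIs were recovered from these log2 values (99.94% of low values were whole to within 0.05). The authors removed likely doublets and poor cells by limits on UMIs, genes and the mitochondrial share. No doublet caller was run here and no further cells were removed. No cell barcode was used in more than 1 heart (0 shared).

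For every heart and type the mean CPM of its cells was taken, 10 CPM added and the log2 formed. Genes with at least 10 UMIs and a UMI in 3 hearts entered limma 3.58.1 (eBayes with trend, R 4.3.3), fitted per type over all genes with Benjamini-Hochberg adjustment. Fitting was tested on simulated counts per heart for macrophages and fibroblasts. The simulation held no single cells, so it does not cover heart means that rest on few cells. Nothing says that the hearts came from separate experiments beyond their hashtags, so p-values apply to these hearts only. Those of limma also rest on spread borrowed across genes. In Mo-DCs they rest on limma's trend alone, without the gene's own spread between hearts. The floor for a count of 0 covers counting error only.

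The members, marker lists and pathway lists were chosen with earlier results of these data known. Genes named were the 9 members, list genes called in any type and the 3 genes most like each member by Pearson correlation of log2(mean CPM + 10) among 14458 genes. For each member the values of all hearts are given in the types where it was called and in the 2 types with the highest mean. Pseudocounts of 1 and 50 CPM, no filter, summed UMIs, limma-voom on recovered UMIs, centring, leaving out small hearts or cells with other cells' markers (for macrophage markers in fibroblasts, added after seeing the data), each gene's own spread and leaving out each heart were the alternatives. Shared 50-base stretches of transcripts with other genes were 1.97% for Ccl9, 1.91% for Ccr2 and 0% for the other 7 genes (GENCODE, GRCm38).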

Additional observations from a re-analysis of the deposited data

How the results depend on the processing

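Of the 9 genes, 6 pairs of a gene and a type were called as reported above. The count was 2 with a pseudocount of 1 CPM, 1 with limma-voom, 2 without hearts of under 10 cells, 3 with summed UMIs and 0 with each gene's own spread. It was 4 without fibroblasts that had macrophage markers, and these last settings were chosen after seeing the data. It was 8 with a pseudocount of 50 CPM and 5 with no filter, and leaving out 1 heart gave 0 to 7 (0 without IL-33+ replicate 2, 2 without IL-33- replicate 5). Apart from each gene's own spread, the call was lost in 8 of 17 alternatives for Ccl2 and for Ccl7 in fibroblasts, in 4 of 17 for Ccl2 and for Ccl8 in Mo-DCs, in 10 of 17 for Ccl8 and in 2 of 12 for Ccl24 in unconventional T cells. Ccl24 could not be fitted there under the 5 alternatives that leave out an IL-33+ heart, small hearts or cells with T cell and macrophage markers, so its count is no sign of stability. Of 318 fold changes over 19 pairs, 308 moved by less than 1 SD between hearts and 9 moved by more. The SD was that of the gene itself and was wide, so this count is no sign of stability. For example, Ccl2 in fibroblasts at -1.29 without small hearts, in place of -2.50, counted as a move of less than 1 SD. A turn of direction was counted for the 6 called pairs only, and 1 was found. This was Ccl8 in unconventional T cells, at 2.00 without cells of both T cell and macrophage markers. Turns were not counted for the pairs not called, and among these Ccl24 in Mo-DCs turned without hearts of under 10 cells.

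The count for the 5 pathway lists, 1 as reported, was 0 with a pseudocount of 1 CPM, 2 with 50 CPM, 4 with no filter, 0 with each gene's own spread, 2 without cells with neutrophil markers and 3 without cells with endothelial markers, and 0 to 4 with 1 heart left out. The difference in the share of monocytes and macrophages was 5.18 percentage points without fibroblasts, 5.90 with Mo-DCs, and -3.70 to 8.86 with 1 heart left out. B cells had a median log2 fold change of 0.28 over all genes. No paired analysis was possible because the groups share no replicate numbers. Heart means from under 10 cells, found among B cells, cDCs, fibroblasts, Mo-DCs, monocytes and unconventional T cells, limit the precision, and the causes of these changes were not tested.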
